A study of Mus musculus with 2 samples.

Results

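The genes described here are the inhibitor of apoptosis (IAP) genes Xiap, Birc2, Birc3 and Birc6, the mitochondrial antagonists Diablo and Htra2, and the survival gene Ciapin1 together with the kinase gene Taok1. They were chosen by name, and all 8 were found among the 34745 genes of the deposited tables. RNA-seq was performed on LSKs (lineage-negative, Sca-1-positive, c-Kit-positive stem and progenitor cells) sorted from the bone marrow (BM) of Scl/tTA-BA mice on a C57BL/6 background. In these tet-off mice the Scl promoter drives the transactivator tTA in stem and progenitor cells, and tTA switches on BCR/ABL (BA), the fusion oncogene of chronic myeloid leukemia (CML), once doxycycline is taken away. All mice carried both transgenes. The week-0 group had doxycycline in the drinking water, which keeps BA off, and the week-3 group was taken 3 weeks after doxycycline withdrawal. LSKs of 3 mice were mixed in each group and gave 1 library, so the spread between mice is unknown and no difference below has a replicate check or a test. BA itself was not analysed here, and not every sorted week-3 cell need express it.

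IAP proteins carry baculoviral IAP repeat (BIR) domains and hold cell death in check at several points. Xiap binds and blocks caspases, Birc2 (cIAP1) and Birc3 (cIAP2) are ubiquitin ligases of tumor necrosis factor (TNF) signalling that feed NF-kappaB and restrain its alternative arm, and Birc6 is a very large ubiquitin-conjugating enzyme that acts on caspases and on the antagonists. Diablo (Smac) and Htra2 (Omi) wait between the mitochondrial membranes, and when these leak they bind IAPs and free the caspases. Ciapin1 has no BIR domain. It passes electrons in cytosolic iron-sulfur cluster assembly and was first described as a cytokine-induced inhibitor of apoptosis.

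The study followed the microRNA miR-142a as a candidate regulator of survival genes, so the mature forms of miR-142a and their matches in these transcripts are shown here. Both arms come from 1 hairpin gene on the plus strand of chromosome 11 (RefSeq, GRCm38.p6), the 5p arm at chr11:87756867-87756887 and the 3p arm at chr11:87756903-87756925. The capitals mark the seed, bases 2 to 8.
mmu-miR-142a-5p: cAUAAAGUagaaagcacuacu
mmu-miR-142a-3p: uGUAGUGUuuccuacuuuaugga
A full seed match reads ACTTTAT for the 5p arm and ACACTAC for the 3p arm, and was searched on the sense strand of 3′ UTRs, taking for each gene its coding transcript with the longest reading frame (GENCODE M21, GRCm38). Of 20076 such UTRs, 13.4% held the 5p match and 5.55% the 3p match.

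Among the 7 members whose 3′ UTR could be searched (all but Birc6), the matches lay in Xiap and Taok1, which also have the longest UTRs of the 7, at 4672 and 8705 bases. Each site below is written 5′ to 3′ on the gene's own strand, with the 7 bases that pair with the seed in capitals.
Xiap, 5p, chrX:42105759-42105782 (plus strand): cttatagagcccttcACTTTATtt
Xiap, 3p, chrX:42109023-42109046 (plus strand): gaaagtcacttattcACACTACca
Taok1, 5p, chr11:77531956-77531979 (minus strand): attatgcaggtgataACTTTATgg
Taok1, 3p, chr11:77536884-77536907 (minus strand): attagcatattcatcACACTACat
Taok1, 3p, chr11:77535147-77535170 (minus strand): catttgaccaaattaACACTACct
Those 7 letters were in none of the UTRs of Ciapin1 (3293 bases in its longest-frame transcript, and 536, 243 and 173 bases in the other coding transcripts searched), Birc2 (523), Birc3 (564), Diablo (806) and Htra2 (203). A match is a description of the sequence and not a site in use. MicroRNAs were not measured in the tables used here, and other forms of pairing were not searched. From a luciferase reporter assay, the paper proposes Ciapin1 as a possible direct target of miR-142a. It also reports lower Ciapin1 mRNA and protein in a BA-expressing cell line when miR-142a was overexpressed, and a partial rescue of survival by added Ciapin1. In that line it reports Birc2 and Xiap mRNA as higher with BA and lower with added miR-142a. The paper places Birc2, Xiap, Taok1 and Ciapin1 among the highly expressed genes of its anti-apoptotic microRNA network. The search for these letters does not test those results.

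In all, 6356164 reads were counted on genes at week-0 and 3886695 at week-3. A floor of 3 reads is then 0.472 and 0.772 RPM (reads scaled to library size, per-million). The sort markers Kit and Ly6a were present in both libraries, with a summed level of 36.7 FPKM (fragments per kilobase of exon, scaled per-million to library size) at week-0 and 26.3 at week-3. The 6 lineage antigens used for depletion summed to 2.28 and 2.23 FPKM, and Cd3e and Cd8a were among those listed at 0 at week-3. Genes used as markers of other cells differed between the libraries. The 8 mast cell markers summed to 77.8 FPKM at week-0 and 3087 at week-3, with 7 of 8 higher and Tpsb2 and Mcpt4 at 0 at week-0. The 8 neutrophil granule markers summed to 1463 and 7093 FPKM, with 8 of 8 higher. Elane (933 and 5143) and Mpo (309 and 988) had the highest FPKM of these. Ltf (1.78 and 11.5) and Lcn2 (1.03 and 14.7) had the lowest. The 8 B and plasma cell markers summed to 1925 and 265 FPKM, with 7 of 8 lower, and 14 of 14 early response genes such as Fos and Egr1 were lower at week-3 (15331 and 4657 FPKM in sum). In mixed cells, fewer cells of a type and less RNA per cell cannot be told apart.

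The 8 genes did not move as a block. The FPKM of Ciapin1 and Taok1 was over 2 times higher at week-3, that of Birc3 was under 0.5 of week-0, and the other 5 lay between these limits. Among the 12192 genes with at least 20 reads over both libraries, 10.6% were at least 2 times higher at week-3 and 15.6% were at 0.5 or below, beside 2 of 8 and 1 of 8 members. The exact 95% interval of the FPKM ratio, which covers counting error only, lay above 1 for 4 members (Xiap, Htra2, Ciapin1 and Taok1) and below 1 for 2 (Birc3 and Diablo). Over all tested genes these shares were 34.0% and 28.5%, so the members' counts, 4 and 2 of 8, do not set them apart from other genes. The median log2 ratio of all tested genes was 0.07, with 6505 genes higher and 5687 lower.

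**Figure D1:**
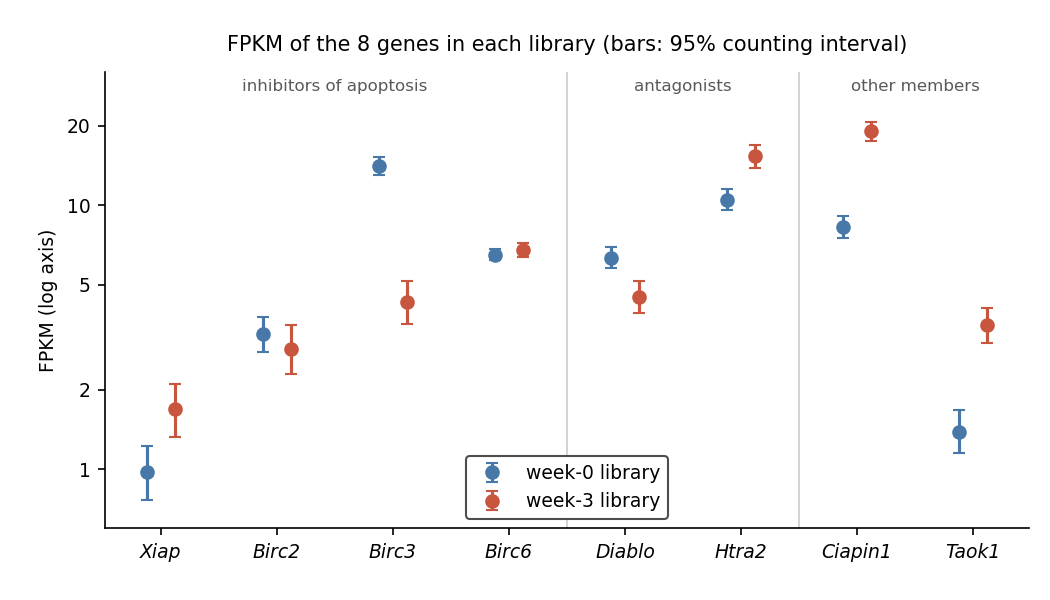
FPKM (log axis) of each gene in the week-0 library (blue) and the week-3 library (red), with bars for the exact 95% Poisson interval of the reads. Birc3 went from 14.1 to 4.29 FPKM and Ciapin1 from 8.31 to 19.1, while Birc2 and Birc6 have bars that overlap between the libraries.

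Birc3 had the largest difference of the IAP genes. Birc3 (chr9:7848699-7873186, minus strand) had 618 week-0 reads and 115 week-3 reads, or 14.1 FPKM (95% counting interval 13.0 to 15.3) and 4.29 FPKM (3.54 to 5.15). It was the member with the highest FPKM at week-0 and only the fifth at week-3. The FPKM ratio was 0.304 (0.247 to 0.372), a log2 ratio of -1.72, which stood at percentile 7.78 of all tested genes. Birc3 is itself a known NF-kappaB target gene, and the markers of B and plasma cells and the early response genes given above were lower in the same library. Their part in the difference was not tested. Some stretches of Birc3 have near-identical copies elsewhere, including 369 bases at 99.2% identity in the pseudogene Gm7019, so the assignment of reads in these stretches is uncertain.

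Its neighbor and closest relative Birc2 (chr9:7818227-7837064, minus strand) lies on the same strand of chromosome 9. Birc2 had 170 week-0 reads and 91 week-3 reads, or 3.27 FPKM (2.79 to 3.79) and 2.86 FPKM (2.30 to 3.51). The intervals overlap, and the interval of the ratio of 0.875 (0.671 to 1.14) includes 1. The FPKM of Birc2 was thus not higher at week-3, although the paper counts Birc2 among the highly expressed genes of its network. The reads of Birc3 relative to Birc2 were lower at week-3 by a ratio of ratios of 0.348 (0.249 to 0.487). Birc3 thus gave 78.4% (75.4 to 81.3, exact binomial) of the reads of the cIAP pair at week-0 and 55.8% (48.8 to 62.7) at week-3. The pair's summed level was 17.4 FPKM at week-0 and 7.15 at week-3.

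Xiap, the caspase inhibitor, was the gene with the lowest FPKM in both libraries and was higher at week-3. Xiap (chrX:42059679-42109656, plus strand) had 72 week-0 reads and 76 week-3 reads, or 0.978 FPKM (0.766 to 1.23) and 1.69 FPKM (1.33 to 2.11). The ranges do not overlap, but they rest on few reads and the interval of the ratio is wide. The ratio was 1.73 (1.23 to 2.42), a log2 ratio of 0.79, at percentile 84.0 of all tested genes. This ratio is below the limit of 2 times that the paper used for its RNA-seq genes, although the paper lists Xiap in its network.

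Birc6 was level between the libraries. Birc6 (chr17:74528295-74703356, plus strand) had the most reads of the members, 1749 at week-0 and 1115 at week-3, or 6.50 FPKM (6.20 to 6.81) and 6.78 FPKM (6.38 to 7.19). The ratio of 1.04 (0.966 to 1.12) includes 1, and this narrow interval leaves out a difference of 1.5 times as counting error goes. Its log2 ratio of 0.06 turned to -0.05 when the libraries were scaled by TMM, which shifted every log2 ratio by -0.11.

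The antagonists Diablo and Htra2 moved apart from each other. Diablo (minus strand of chromosome 5) had 448 week-0 reads and 195 week-3 reads, or 6.34 FPKM (5.77 to 6.96) and 4.51 FPKM (3.90 to 5.19). Htra2 (chr6:83051266-83055273, minus strand) had 476 week-0 reads and 426 week-3 reads, or 10.5 FPKM (9.58 to 11.5) and 15.4 FPKM (13.9 to 16.9). Diablo was thus lower and Htra2 higher at week-3, with no overlap of the intervals for either gene. The ratio was 0.712 (0.599 to 0.844) for Diablo and 1.46 (1.28 to 1.67) for Htra2, and Htra2 reads relative to Diablo reads differed between the libraries by a ratio of ratios of 2.06 (1.65 to 2.56). Diablo gave 48.5% (45.2 to 51.8) of the antagonist reads at week-0 and 31.4% (27.8 to 35.2) at week-3.

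Both antagonist values carry a limit from overlapping genes, since the cDNA kit does not mark strand. Exons of Aup1, on the opposite strand, cover 753 bases or 25.6% of the Htra2 exons, and Aup1 itself had 1096 week-0 reads and 708 week-3 reads. Loxl3 covers a further 18.2% but had 12 and 7 reads. In Diablo, B3gnt4 covers 21.5% of the exons and had 0 reads in both libraries. The same-strand gene Gm49027 shares 19.3% of the Diablo exons, and its reads were not analysed here.

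Ciapin1 was the gene with the highest FPKM at week-3. Ciapin1 (minus strand of chromosome 8) had 413 week-0 reads and 579 week-3 reads, or 8.31 FPKM (7.53 to 9.15) and 19.1 FPKM (17.5 to 20.7). More reads were counted for it in the shallower library, and the intervals lie far apart. The ratio was 2.29 (2.02 to 2.61), a log2 ratio of 1.20, at percentile 92.8 of all tested genes. The log2 ratio of 320 genes lay within 0.1 of it. The pseudogene Gm7418, on the opposite strand, overlaps 8.70% of the Ciapin1 exons.

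Taok1, a STE20-family kinase upstream of p38 and Hippo signalling, had the largest ratio of the members. Taok1 (chr11:77529162-77607815, minus strand) had 112 week-0 reads and 173 week-3 reads, or 1.39 FPKM (1.15 to 1.68) and 3.52 FPKM (3.02 to 4.09). The level was low in both libraries, and the intervals do not overlap. The ratio was 2.53 (1.98 to 3.23), a log2 ratio of 1.34, at percentile 94.2. The ratio of ratios of Ciapin1 against Taok1, 0.908 (0.686 to 1.20), includes 1. With a pseudocount of 1 FPKM, the log2 ratio of Taok1 was 0.92, below the limit of 2 times.

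**Figure D2:**
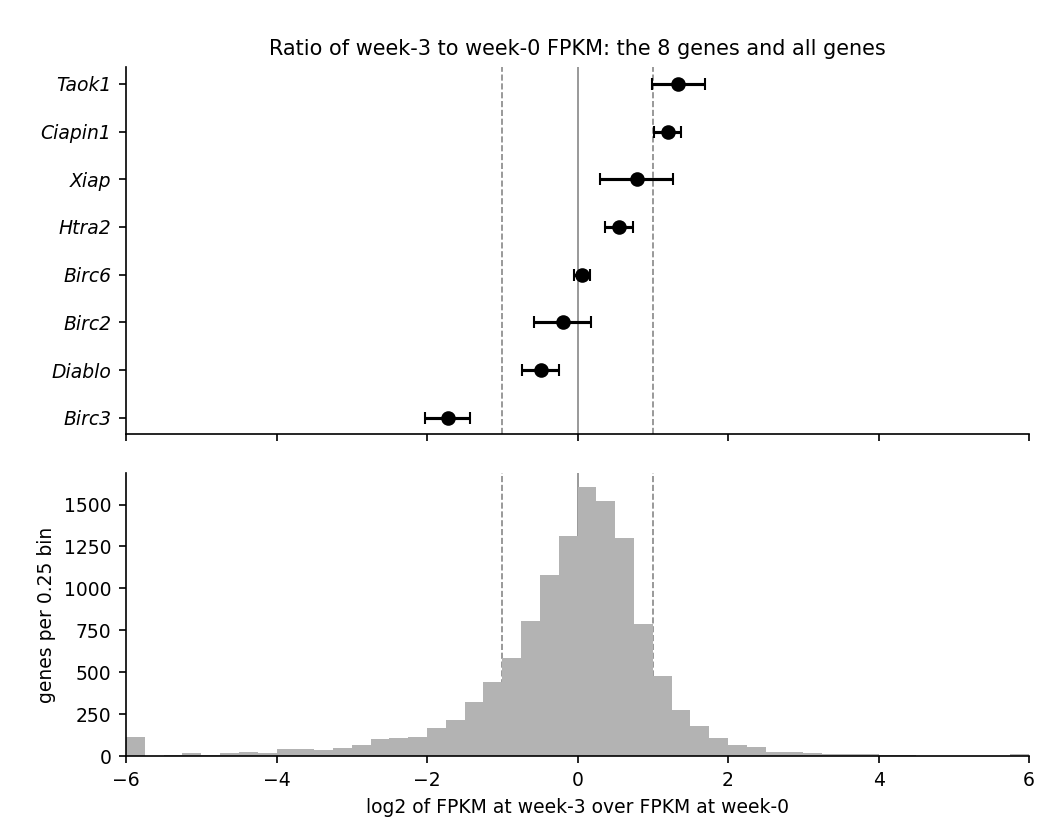
Upper panel, log2 of the FPKM ratio of week-3 over week-0 for each member with its exact 95% counting interval. Lower panel, the same ratio for the 12192 genes with at least 20 reads in bins of 0.25, where the outermost bins also hold all values beyond them. Dashed lines mark ratios of 0.5 and 2. Birc3, at -1.72, lies in the lower tail, Ciapin1 and Taok1, at 1.20 and 1.34, lie in the upper part, and Birc6, at 0.06, lies next to the median.

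Within a library, the FPKM of neighbors in the order of levels often could not be told apart. At week-0 the order was Birc3, Htra2, Ciapin1, Birc6, Diablo, Birc2, Taok1 and Xiap, and the intervals of Birc6 and Diablo and those of Taok1 and Xiap overlapped. At week-3 it was Ciapin1, Htra2, Birc6, Diablo, Birc3, Taok1, Birc2 and Xiap, and the intervals overlapped between each pair of neighbors from Diablo to Birc2. The exon length behind the FPKM was not that of GENCODE M21 for most members, for example 7.13 kb against 2.95 kb for Htra2 and 42.3 kb against 25.8 kb for Birc6. On the GENCODE M21 length, a setting chosen after the values were seen, Htra2 was first in both libraries, at 25.4 and 37.2 in the unit of FPKM, followed by Birc3 at week-0 (19.4) and by Ciapin1 at week-3 (16.2). Xiap was the last on both scales. Ratios of a single gene between the libraries do not depend on this length, but sums of FPKM over genes do.

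The comparison of IAP genes with antagonists depended on which genes were set against each other. The 4 IAP genes had 2609 reads against 924 of Diablo and Htra2 at week-0, and 1397 against 621 at week-3. The IAP reads per antagonist read were 2.82 at week-0 and 2.25 at week-3, so this balance was lower at week-3, by a ratio of ratios of 0.797 (exact 95% interval 0.705 to 0.901). On the FPKM scale, the IAP sum was 24.9 at week-0 and 15.6 at week-3, whereas the antagonist sum was 16.8 and 19.9. The FPKM ratio of IAP genes to antagonists was therefore 1.48 at week-0 and 0.785 at week-3. The size of this ratio depends on the exon length behind the FPKM, which for most members was not the GENCODE M21 one. On the latter, Birc3, Birc6, Birc2 and Xiap were at 19.4, 10.7, 5.84 and 1.20 at week-0. Htra2 and Diablo were at 25.4 and 11.4, so both sides were near level. At week-3 the IAP genes were at 5.91, 11.1, 5.11 and 2.07 in the same order. The antagonists were at 37.2 and 8.14, so the week-3 ratio was below 1 on this length too.

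The shift in IAP reads per antagonist read rested on Birc3 and on Htra2. Without Birc3, the ratio of ratios was 0.958 (0.845 to 1.09), which includes 1. Against Htra2 alone it was 0.598 (0.516 to 0.694), but against Diablo alone it was 1.23 (1.02 to 1.48), in the other direction. That turn held for summed reads only, since by summed FPKM the ratio of IAP genes to Diablo was 3.92 at week-0 and 3.46 at week-3, a ratio of ratios of 0.883. Birc3 gave 23.7% (22.1 to 25.4) of the IAP reads at week-0 and 8.23% (6.84 to 9.80) at week-3, while the long Birc6 transcript gave 67.0% and 79.8%. By summed FPKM, Birc3 made up 56.8% of the IAP level at week-0 and 27.5% at week-3.

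**Figure D3:**
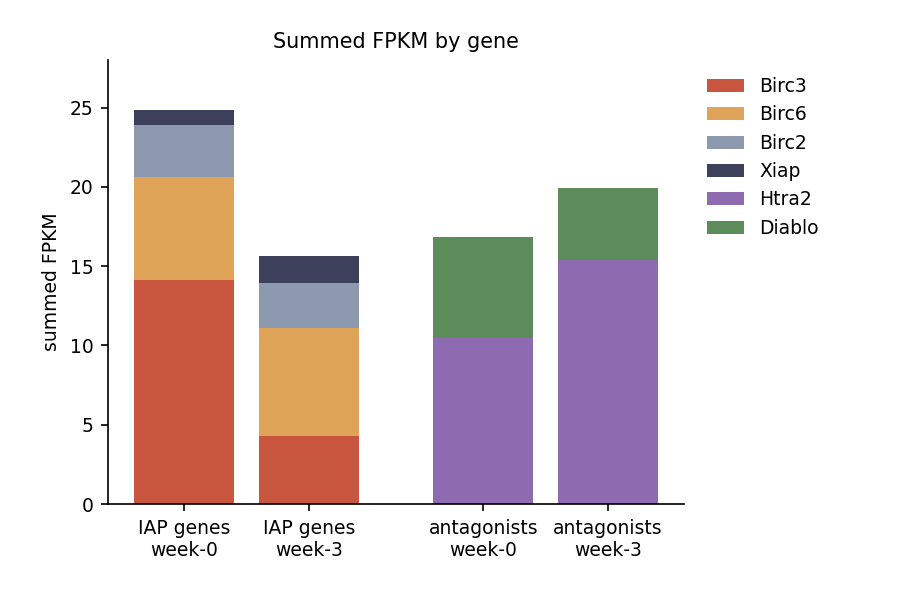
Stacked FPKM of the 4 IAP genes (left pair of bars) and of the 2 antagonists (right pair) in the week-0 and week-3 libraries. The IAP sum is 24.9 and 15.6, with the Birc3 part shrinking, and the antagonist sum is 16.8 and 19.9, with the Htra2 part growing. The heights depend on the exon length behind the FPKM.

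Single genes against the antagonists gave a graded picture, for which 28 ratios of ratios were computed in all. Against both antagonists together, the reads of Xiap (1.57, 1.10 to 2.24), Ciapin1 (2.09, 1.77 to 2.46) and Taok1 (2.30, 1.76 to 3.01) were relatively higher at week-3. Birc3 was relatively lower (0.277, 0.219 to 0.348), and the intervals of Birc2 (0.796, 0.598 to 1.06) and Birc6 (0.949, 0.834 to 1.08) include 1. Ciapin1 and Taok1 were relatively higher against either antagonist and Birc3 was relatively lower against either. Birc2 was relatively lower against Htra2 (0.598, 0.444 to 0.803), while its interval against Diablo includes 1 (1.23, 0.894 to 1.69). For Birc6 the direction depended on the antagonist, at 1.46 (1.21 to 1.77) against Diablo and 0.712 (0.611 to 0.831) against Htra2. Xiap was higher against Diablo (2.43, 1.66 to 3.55), while its interval against Htra2 includes 1 (1.18, 0.820 to 1.70).

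**Figure D4:**
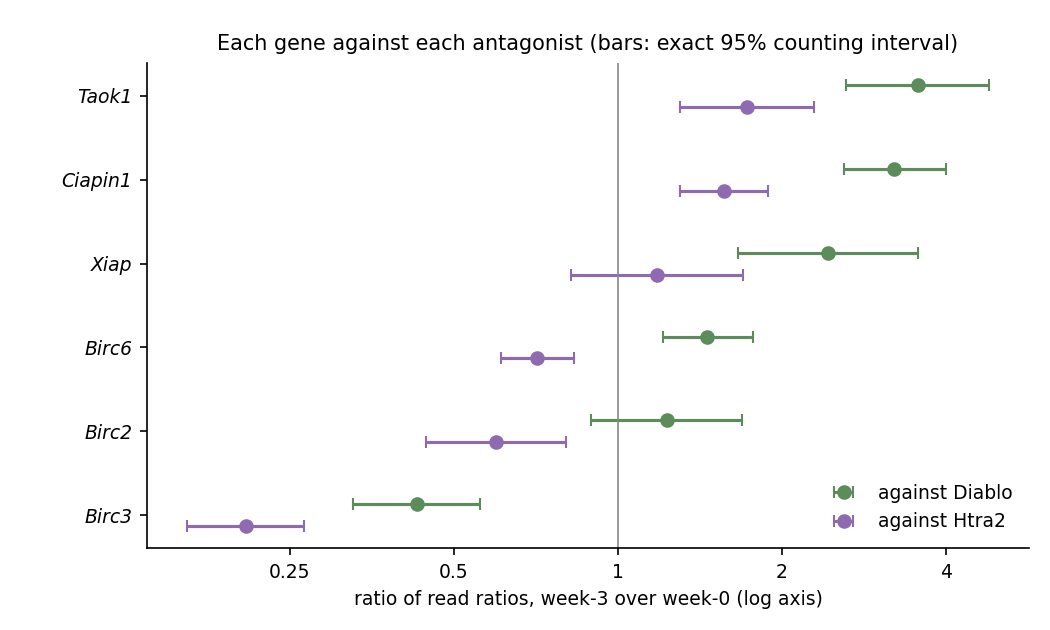
Ratio of read ratios, week-3 over week-0 (log axis), of each gene against Diablo (green) and against Htra2 (purple), with exact 95% counting intervals. Values above 1 mean relatively more reads of the gene at week-3. Birc3 lies below 1 and Ciapin1 and Taok1 above 1 against either antagonist, and Birc6 lies at 1.46 against Diablo and 0.712 against Htra2.

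The genes around the members were read from 8 lists with 72 genes, of which 69 had at least 20 reads. Of these 69, 7 were at least 2 times higher and 13 were at 0.5 or below, and 10 of the 13 came from 1 list. The median log2 ratio of the 69 was -0.06, beside 0.07 over all tested genes. These counts are read beside the 10.6% and 15.6% of all tested genes given above. The medians that follow are descriptions of these libraries.

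NF-kappaB is the transcription factor family that cIAPs act on and that drives Birc3. In the list of its subunits and well-known target genes, 12 of 12 genes were lower at week-3, 10 of them at 0.5 or below, with a median log2 ratio of -2.43. Tnfaip3 (A20), the inducible brake on NF-kappaB, had 5552 week-0 reads and 177 week-3 reads (62.6 and 3.26 FPKM, log2 ratio -4.26). Traf1, which recruits the cIAPs to TNF receptors, had 448 and 17 reads (5.28 and 0.327 FPKM, log2 ratio -4.01). The inhibitor Nfkbia had 15687 and 1612 reads (1565 and 263 FPKM, log2 ratio -2.57).

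The other list members at 0.5 or below were the subunits Nfkb2 (log2 ratio -2.30), Rel (-1.50), Rela (-1.76) and Relb (-2.65), the regulators Nfkbie (-2.26) and Nfkbiz (-2.57), and the adhesion molecule Icam1 (-2.73). Nfkb1 (-0.84) and Bcl3 (-0.97) were nearer to level. The log2 ratio of Birc3, -1.72, lay inside the range of this list, -4.26 to -0.84. That range is wide, and 15.6% of all tested genes were at 0.5 or below, so this place does not link Birc3 to the list. The early response genes were lower in the same library, and so were 7 of 8 B and plasma cell markers, and their part was not tested.

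The kappaB consensus motif, searched on both strands of the 300-base RefSeq promoters (250 bases before to 50 after the start, GRCm38.p6), was found in 6 of 9 genes of the NF-kappaB list, beside 5.14% of 27025 genes with a promoter entry. It was in the window of none of the 7 members with an entry (all but Htra2), Birc3 among them. That says only that these letters are not in this window.

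In the list of cIAP partners in TNF receptor signalling, none of the tested genes was past the limits. This rests on how the lists were drawn up, since Traf1 (log2 ratio -4.01) was counted in the NF-kappaB list. Of 21 tested genes, 0 were past 2 times in either direction, the log2 ratios ran from -0.88 to 0.98, and the median was -0.06. The most read were Rbck1, a subunit of the linear ubiquitin ligase, with 1261 and 741 reads (31.1 and 29.8 FPKM), and the receptor Tnfrsf1a, with 764 and 283 reads (31.9 and 19.3 FPKM, log2 ratio -0.72). Cflar, which holds back caspases at death receptors, had 587 and 431 reads (5.14 and 6.18 FPKM, log2 ratio 0.26). The counting interval lay above 1 for 6 genes and below 1 for 5 of the 21, beside 34.0% and 28.5% of all tested genes.

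Of the other BIR domain genes, 4 of 6 could be compared. Birc5 (survivin), which works in cell division, had a higher FPKM than any of the 8 members in either library, with 1139 and 912 reads and 43.0 and 56.3 FPKM, a log2 ratio of 0.39 (0.26 to 0.52). Naip2 was past 2 times, with 15 and 28 reads (0.438 and 1.34 FPKM, log2 ratio 1.61). Naip5 had 74 and 41 reads, and Naip6 had 16 and 15, and the interval of the ratio included 1 for both. The Naip genes are close paralogs, and reads may be split among them. Birc7 had 0 reads in both libraries, and Naip1 had 4 and 0.

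Among other regulators, Xaf1, which antagonizes Xiap, was the 1 gene of 5 past the limits. It had 156 week-0 reads and 39 week-3 reads, or 4.25 and 1.74 FPKM, a log2 ratio of -1.29 (-1.84 to -0.78). Xiap was thus higher and its antagonist Xaf1 lower at week-3. Parl, the mitochondrial protease that processes Diablo, had 676 and 657 reads (17.7 and 28.1 FPKM, log2 ratio 0.67). Uba6, the activating enzyme that loads Birc6 with ubiquitin, had 101 and 108 reads (1.79 and 3.13 FPKM, log2 ratio 0.81). Gspt1, which in a processed form binds IAPs, had 314 and 184 reads (7.41 and 7.10 FPKM).

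The list of other death proteins of the mitochondrial intermembrane space held 3 genes. All 3 were higher at week-3, as Htra2 was and Diablo was not, and 2 were past 2 times. Of all 12192 tested genes, 6505 were higher and 10.6% were at least 2 times higher. A list of 3 genes is too short to be set apart from these shares. Cycs (cytochrome c), the trigger of the apoptosome, had 1683 and 1974 reads (71.0 and 136 FPKM, log2 ratio 0.94). Aifm1, a flavoprotein of the respiratory chain, had 156 and 212 reads (4.76 and 10.6 FPKM, log2 ratio 1.15). The nuclease Endog had 21 and 29 reads (3.11 and 7.02 FPKM, log2 ratio 1.18, 0.32 to 2.06), so its value rests on few reads.

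Casp9, the initiator caspase of the mitochondrial pathway and a binding partner of Xiap, was past 2 times. It had 29 week-0 reads and 36 week-3 reads (0.602 and 1.22 FPKM, log2 ratio 1.02, 0.28 to 1.78), so the value rests on few reads.

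In the pathway of Ciapin1, cytosolic iron-sulfur assembly, 8 of 10 genes were higher at week-3 and the median log2 ratio was 0.42. Over all 12192 tested genes, 6505 were higher and the median was 0.07. The counting interval lay above 1 for 7 genes of the list and below 1 for 2, beside 34.0% and 28.5% of all tested genes. Past 2 times were Ciao1, of the targeting complex, with 141 and 195 reads (5.24 and 11.8 FPKM, log2 ratio 1.18), and Bola2, a partner of Glrx3, with 228 and 330 reads (5.09 and 12.0 FPKM, log2 ratio 1.24). The direct partner of Ciapin1, the reductase Ndor1, went the other way, with 349 and 154 reads (4.30 and 3.10 FPKM, log2 ratio -0.47, -0.75 to -0.19). The most read of the list were Fam96a (1258 and 960 reads, log2 ratio 0.32), Glrx3 (1143 and 929 reads, log2 ratio 0.41) and the scaffold Nubp2 (913 and 826 reads, log2 ratio 0.57).

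The kinases around Taok1 had a median log2 ratio of -0.47. The counting interval lay above 1 for 3 of 11 and below 1 for 4, beside 34.0% and 28.5% of all tested genes. The paralog Taok2 had 198 and 163 reads (3.01 and 4.05 FPKM, log2 ratio 0.43), and Taok3 had 518 and 304 reads (5.16 and 4.96 FPKM, log2 ratio -0.06, -0.27 to 0.15). Taok1 was thus the only one of the 3 TAO kinases past 2 times. Past the limits were Mapk11, a p38 kinase, with 20 and 27 reads (log2 ratio 1.14), the Hippo kinase Lats2, with 288 and 61 reads (log2 ratio -1.53), and Map2k3, an activator of p38, with 2523 and 548 reads (78.3 and 27.8 FPKM, log2 ratio -1.49). The p38 kinase Mapk14 had 571 and 344 reads (18.5 and 18.3 FPKM), and Stk4, a Hippo kinase, had 485 and 342 reads (12.0 and 13.9 FPKM).

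**Figure D5:**
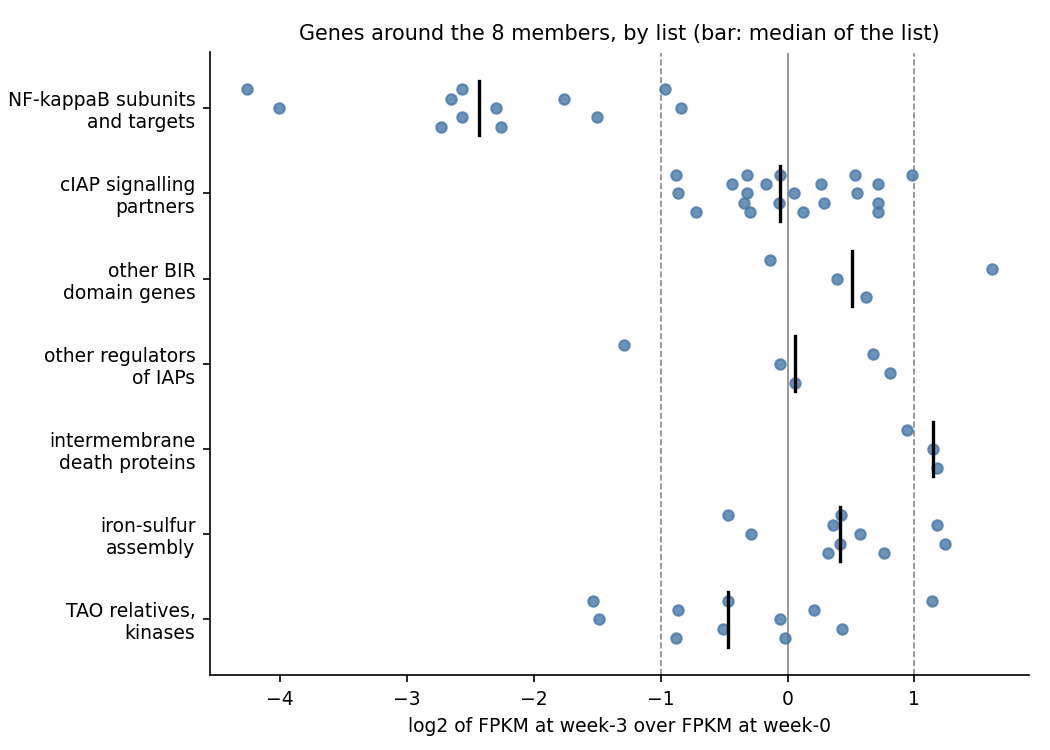
Log2 of the FPKM ratio of week-3 over week-0 for tested genes around the members, in 7 of the lists. Each point is a gene, each black bar is the median of the list, and dashed lines mark ratios of 0.5 and 2. The NF-kappaB list lies wholly below 0, with a median of -2.43, and includes Traf1, which recruits the cIAPs. The genes in the list of cIAP signalling partners lie between -0.88 and 0.98.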

How the data were processed

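Total RNA from LSKs mixed from 3 mice per group was turned into cDNA by a SMARTer Ultra Low Input protocol, which does not mark strand, and sequenced as paired ends. After trimming, the authors aligned the reads to GRCm38 (mm10) using TopHat2 2.0.9. The counting tool and the annotation release are not given in the sources used here. The authors deposited whole-number counts per gene without normalization and FPKM scaled by exon length and by the reads counted on genes (reads per FPKM unit were 1.635 times greater in the week-0 library, as its total was, in all 7775 genes checked).

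The FPKM were used for levels and for the ratio of week-3 to week-0, and the counts for the error: exact 95% Poisson intervals of levels, Clopper-Pearson intervals of ratios and shares, and conditional exact intervals of ratios of read ratios (scipy 1.17.1). The intervals cover counting error only, and read copies made by PCR are not independent molecules. With 1 library per group there is no residual degree of freedom, so edgeR, which the authors used to compare genes, was not fitted here as a test, and no gene was tested. A gene was compared ("tested" in the text) with at least 20 reads over both libraries, and limits of 2 and 0.5 on the FPKM ratio were used to call a gene higher or lower. The TMM factors of edgeR 4.0.16 and the median-of-ratios factors of DESeq2 1.42.0 served as other scalings only. Other alternatives were upper quartile scaling, pseudocounts of 0.1 and 1, limits of 1.5 and 0.67, other read minimums, other gene choices for the IAP comparison and, added after the data were seen, the GENCODE M21 exon length. The interval and fold functions were checked on simulated data.

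The members and lists were chosen with earlier results of these data known. Named are all members, each list gene past the limits and at most 3 others per list with the most reads. Some genes of direct interest were named beyond this rule after their values were seen, namely Ndor1, Taok2, Naip1, Birc7 and the overlapping genes. Some genes of the lists are counted but not reported by name here. Positions follow GRCm38. Near-identical copies were sought with blastn 2.17.0 at 95% identity over at least 100 bases.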

Additional observations from a re-analysis of the deposited data

How the results depend on the processing

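No paired analysis was possible because each group had 1 library, and for the same reason no replicate could be left out. Of 40 log2 ratios of members under other scalings and pseudocounts, 38 stayed within the counting interval and 0 called values changed sign. Birc6 moved to -0.05 with TMM and Taok1 to 0.92 with a pseudocount of 1, which left 1 member at least 2 times higher instead of 2. Of the pathway genes, the 7 higher became 16 and the 13 lower became 20 with limits of 1.5 and 0.67, and the higher became 3 with a pseudocount of 1 and 3 with at least 100 reads. The ratio of ratios of IAP to antagonist reads, 0.797, was 0.488 without Birc6, 0.958 without Birc3, 0.598 against Htra2 alone, 0.532 from sums of FPKM, which weight the same genes by length, and reversed to 1.23 against Diablo alone. That reversal is in summed reads, and sums of FPKM gave 0.883 against Diablo alone. Xiap, Casp9, Naip2, Endog and Mapk11 rest on under 100 reads in each library, and there depth limits the precision.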
